A study of Mus musculus with 16 samples.

Results

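MicroRNAs that are abundant in other cell lineages were followed through small RNA libraries of sorted splenic cDC1s (conventional type 1 dendritic cells, the subset specialised in presenting engulfed antigen to CD8 T cells). The 9 microRNAs were taken by identifier from a table of 853 mature microRNAs, and all 9 were found there. The rule that lists the 9 uses no measured value, but earlier results of these data were known when they were chosen. They were miR-451a (MIMAT0001632), miR-144-3p (MIMAT0000156) and miR-486a-5p (MIMAT0003130) for red cells, miR-223-3p (MIMAT0000665) for neutrophils and monocytes, and miR-126a-3p (MIMAT0000138) and miR-126a-5p (MIMAT0000137) for endothelium. For stroma they were miR-143-3p (MIMAT0000247) and miR-145a-5p (MIMAT0000157), and for liver miR-122-5p (MIMAT0000246). The study made 16 libraries from C57BL6 mice, 4 in each of 4 groups: Xbp1 KO cDC1s (Xbp1-deficient) and the wild type of that line, and Xbp1-Ire1 KO cDC1s (compound-deficient) and the wild type of that line. The labels give no allele, Cre driver, sex or age and do not say whether animals were pooled. IRE1 is an endoplasmic reticulum stress sensor whose ribonuclease splices the Xbp1 mRNA, and XBP1 is the transcription factor made from that spliced mRNA.

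A sort from spleen starts from a tissue full of red cells, neutrophils, endothelial cells and reticular stroma, and each of these carries microRNAs at far higher levels than most other blood or tissue cells. A count does not tell which cell a molecule came from, and in a bulk library fewer cells of a type and less RNA per cell cannot be told apart. The protein-coding genes that define cDC1s are not in a microRNA table, so the labelled cell type was not checked against them here.

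The mature sequences show which molecules were counted. The selection from the RefSeq tables (GRCm38.p6) left out a chromosome, so members not shown may have entries there. Sequences of 4 of the 9 are given here. They are written 5′ to 3′ with the seed, bases 2 to 8, in capitals, the stretch that pairs with target mRNAs. None of the 4 shared a seed with another.
miR-451a: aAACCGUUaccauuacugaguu
miR-144-3p: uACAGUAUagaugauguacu
miR-223-3p: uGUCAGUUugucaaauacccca
miR-126a-3p: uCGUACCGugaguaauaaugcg
miR-451a lies at chr11:78073186-78073207 and miR-144-3p at chr11:78073047-78073066, both on the plus strand. Their hairpins are 99 bases apart and are made from a common erythroid transcript that the factor GATA1 switches on. miR-223-3p lies at chrX:96242884-96242905 and miR-126a-3p at chr2:26591402-26591423, both also on the plus strand, and miR-126a is made from an intron of Egfl7, a gene of endothelial cells.

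miR-451a is unusual among these, because the Argonaute protein AGO2 cuts its short hairpin instead of Dicer, and the mature microRNA runs through the loop with no partner arm. The hairpin at chr11:78073170-78073241 shows this, with the mature bases 17 to 38 of 72 in capitals.
miR-451a hairpin: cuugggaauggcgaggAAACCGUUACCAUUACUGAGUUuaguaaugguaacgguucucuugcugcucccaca

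Total counts ranged from 175165 to 1403393 per library. They ranged from 783372 to 1403393 in Xbp1-deficient and from 400210 to 1103001 in Xbp1-line wild-type libraries, and from 175165 to 978134 in compound-deficient and from 332923 to 882108 in compound-line wild-type libraries. Together the 9 microRNAs held between 0.277% and 0.611% of the counts of a library. Nearly all of this was miR-143-3p and miR-223-3p. The erythroid members together held 0.00153% to 0.00927% of the counts, the endothelial members 0.00577% to 0.0220%, and miR-122-5p at most 0.000860%.

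Levels are given as CPM, counts scaled to a common library total, with library sizes adjusted by TMM (trimmed mean of M values, which sets the bulk of microRNAs equal between libraries). In the order of their median over the 16 libraries, miR-143-3p stood at 2296 CPM, miR-223-3p at 1669 CPM, miR-126a-5p at 109 CPM, miR-451a at 24.4 CPM, miR-126a-3p at 20.2 CPM, miR-486a-5p at 16.7 CPM and miR-145a-5p at 2.47 CPM, whereas miR-144-3p and miR-122-5p had a median of 0. All are read as whole molecules of about the same length, but adapter ligation favours some sequences, so this order is one of reads. The ranges over libraries overlapped between miR-143-3p and miR-223-3p, and among miR-451a, miR-126a-3p and miR-486a-5p. Ranked by count among the 853 microRNAs of a library, miR-143-3p lay between place 24 and place 51, miR-223-3p between 41 and 55, miR-126a-5p between 98 and 142, and miR-451a between 131 and 304.

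**Figure D1:**
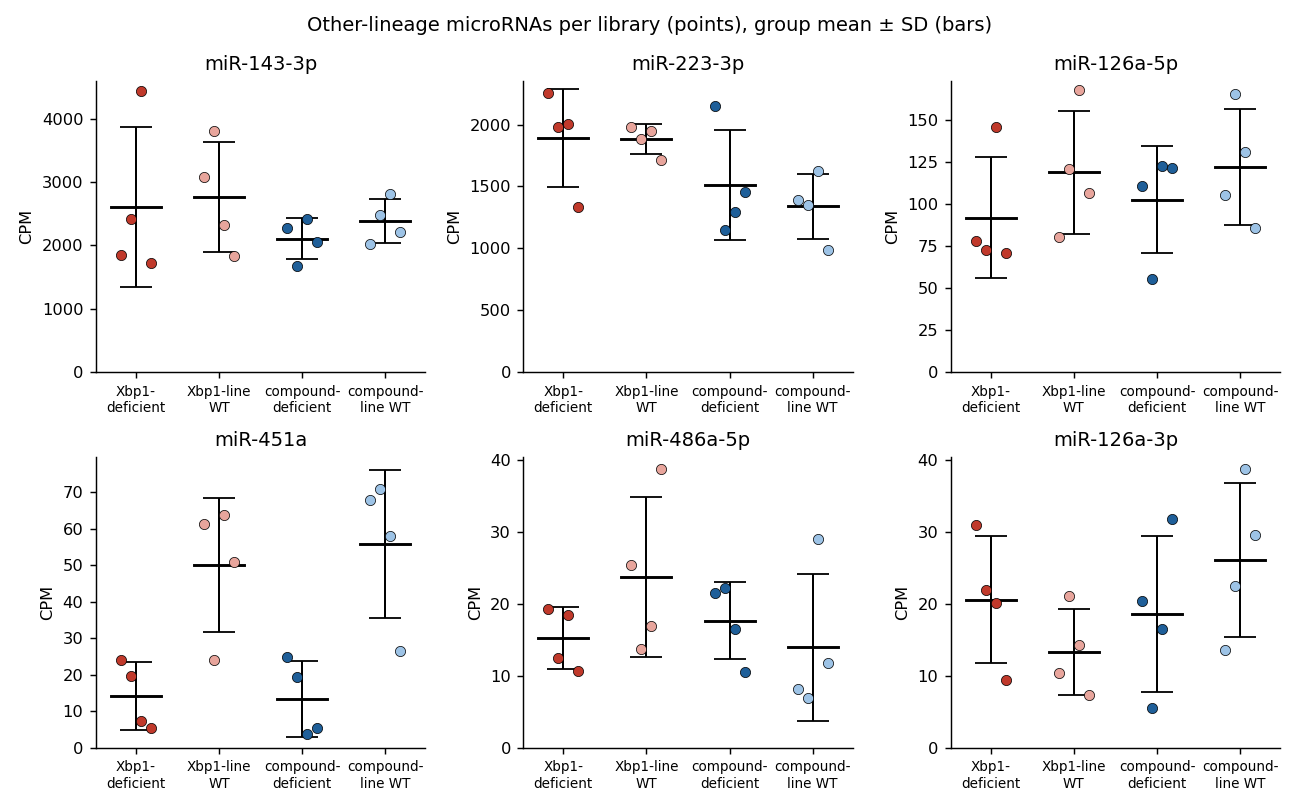
CPM of the 6 members that passed the count filter, with 1 point per library, the group mean as a thick line and the SD as whiskers (n = 4 per group; each panel has its own axis from 0). The miR-451a panel shows both deficient groups at 3.67 to 24.7 CPM and the wild types at 23.9 to 70.8 CPM, while in the other panels each deficient group overlaps its own wild type.

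miR-451a, the most abundant microRNA of mature red cells, had the largest fold change with genotype of the 6 members tested, in both lines. In Xbp1-deficient libraries it stood at 24.1, 19.8, 7.23 and 5.36 CPM (25, 19, 9 and 4 raw counts), against 61.4, 23.9, 63.8 and 50.9 CPM in Xbp1-line wild-type libraries (65, 26, 49 and 21 raw counts). Wild-type replicate 5 was the low one of its group and lay just under the highest deficient library, so the groups overlapped in CPM. As shares of total counts they did not, at 0.00248% in that wild-type library against 0.00226% in the highest deficient library. In compound-deficient libraries miR-451a stood at 24.7, 19.4, 3.67 and 5.28 CPM (23, 7, 2 and 1 raw counts), against 67.7, 70.8, 58.1 and 26.6 CPM in compound-line wild-type libraries (25, 41, 54 and 9 raw counts). Here all 4 deficient libraries lay below all 4 wild-type libraries, the nearest being compound-deficient replicate 1 and wild-type replicate 4. The exact 95% counting interval of those 2 libraries, 15.7 to 37.1 CPM and 12.2 to 50.5 CPM, overlapped widely. Intervals and floors cover counting error only, and the sources used here mention no molecular identifiers.

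**Figure D2:**
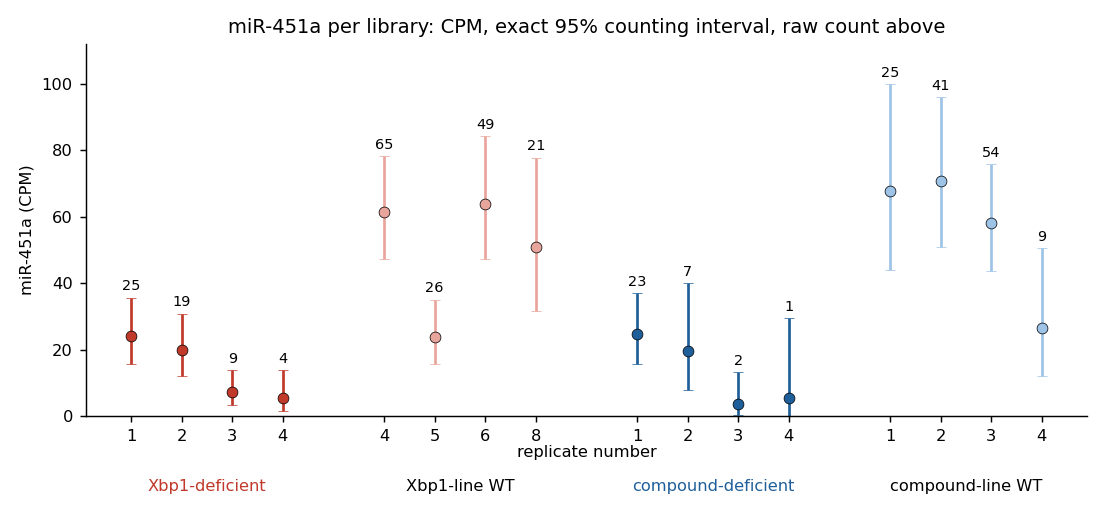
miR-451a in each library, as CPM (vertical axis) with its exact 95% counting interval and the raw count above it, by group and replicate number. The 4 libraries below 10 CPM are all from deficient cells and rest on 9, 4, 2 and 1 counts.

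The mean miR-451a level was 14.1 ± 9.24 CPM in Xbp1-deficient and 50.0 ± 18.3 CPM in Xbp1-line wild-type cells (SD, n = 4 each), and the fitted level was 3.47-fold lower in deficient cells. On the log2 scale the change was −1.80 with an SE of 0.54 and a 95% interval of −2.92 to −0.67. edgeR's quasi-likelihood test gave an adjusted p of 0.0835, above the threshold of 0.05, and an unadjusted p of 0.00342. Of the 6 members tested in this comparison, 0 passed, against 2.35% of all 255 microRNAs tested, and 1 of the 6, miR-451a, had an unadjusted p under 0.05, against 15.7% of all 255. Between these groups 0 of the 6 had CPM ranges that did not overlap, against 11.8% of all 255. DESeq2 called 1 member, miR-451a, at an adjusted p of 0.0338, and edgeR without the filter on low counts also called it, at 0.0154. These were the only 2 of 18 alternative fits that did. On the authors' deposited log2 values, limma gave it an adjusted p of 0.126. Fits that each dropped 1 library put the change between −2.09 and −1.50, with edgeR adjusted p of 0.0561 to 0.283.

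In compound-deficient cells miR-451a averaged 13.3 ± 10.4 CPM, against 55.8 ± 20.2 CPM in the compound-line wild type (SD, n = 4 each), and the fitted level was 3.83-fold lower in deficient cells. On the log2 scale the change was −1.94 with an SE of 0.58 and a 95% interval of −3.14 to −0.73. Its adjusted p in edgeR, 0.0535, stood just outside the threshold, and its unadjusted p was 0.00335. Of the 6 members tested 0 passed, against 5.88% of all 255, and 1 of the 6 had an unadjusted p under 0.05, against 20% of all 255. Ranges that did not overlap were found for 1 of the 6, against 9.8% of all 255. This call moved with the settings: edgeR called miR-451a at an adjusted p of 0.0325 without compound-line wild-type replicate 4 and at 0.0357 without compound-deficient replicate 1. DESeq2 (0.0161), edgeR without the filter (0.00694) and limma on the authors' deposited log2 values (0.0383) called it too. Over the 8 fits that dropped 1 of these libraries, the change lay between −2.63 and −1.66 and the adjusted p between 0.0325 and 0.121.

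The direct test of the difference between both changes of miR-451a gave −0.14 on the log2 scale (SE 0.79, 95% interval −1.79 to 1.51, edgeR adjusted p = 0.989). Of the 6 members 0 passed in this test, against 0% of all 255, and 0 of the 6 had an unadjusted p under 0.05, against 10.2%. Over all microRNAs, limma on the deposited log2 values called 0 and DESeq2 called 1, which was no member. The interval spans more than a 2-fold difference either way, so it does not show that the changes were alike.

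Both lines were then combined as the average of their changes in the same edgeR fit, a contrast added after each change had been seen. miR-451a fell by 1.87 on the log2 scale on that average (SE 0.39, 95% interval −2.69 to −1.04), with an edgeR adjusted p of 0.00347. It was the 1 member called among 6, against 7.45% of all 255 microRNAs (21.6% at an unadjusted p under 0.05). The call held in each of 25 alternative fits, 16 of them with 1 library left out, at an adjusted p of at most 0.00898. Since the 2 lines share no library, 2 separate sets of wild-type libraries lie behind this average. Having been chosen with both changes known, its p is not independent evidence of them.

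miR-486a-5p, made from an intron of the red cell membrane gene Ank1 and abundant in red cells, did not pass in either line. It stood at 19.3, 12.5, 18.5 and 10.7 CPM in Xbp1-deficient libraries, against 25.5, 13.8, 16.9 and 38.8 CPM in wild-type libraries of the Xbp1 line. In the compound line it stood at 21.5, 22.2, 16.5 and 10.6 CPM in deficient libraries, against 8.13, 6.90, 29.0 and 11.8 CPM in wild-type libraries. The groups overlapped in both lines. The log2 fold change was −0.58 (95% interval −1.62 to 0.45, edgeR adjusted p = 0.674) in Xbp1-deficient and 0.30 (interval −0.82 to 1.43, adjusted p = 0.859) in compound-deficient cells. Neither interval reaches the value of miR-451a in its line, although the intervals of both microRNAs overlap and the difference between them was not tested. The raw counts behind miR-486a-5p were 2 to 27 per library.

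The balance of the pair was described by the ratio of their raw counts. The ratio of miR-451a to miR-486a-5p counts was 0.391 to 1.58 in Xbp1-deficient libraries, against 1.31 to 3.77 in the Xbp1-line wild type. It was 0.222 to 1.15 in compound-deficient libraries, against 2 to 10.2 in the compound-line wild type. miR-451a was the higher of the pair in 3 of 8 deficient libraries and in 8 of 8 wild-type libraries. Ratios built on fewer than 5 counts of either microRNA, as in Xbp1-deficient replicate 4, compound-deficient replicates 3 and 4 and compound-line wild-type replicates 1, 2 and 4, carry a large counting error.

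**Figure D3:**
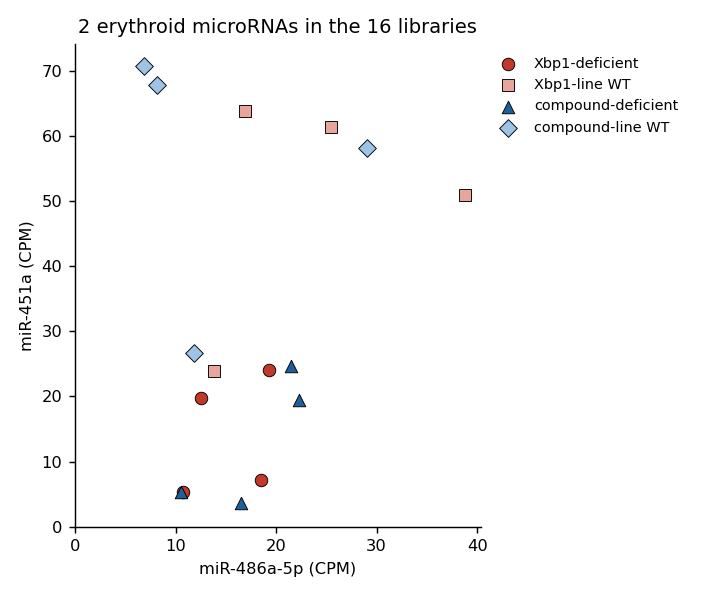
miR-451a (vertical axis, CPM) against miR-486a-5p (horizontal axis, CPM), 1 point per library. At 6.90 to 38.8 CPM of miR-486a-5p, the deficient libraries all lie at or below 24.7 CPM of miR-451a, and 6 of 8 wild-type libraries lie above 50 CPM.

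The third erythroid microRNA, miR-144-3p, gave 13 counts over all 16 libraries and had at least 1 count in 7 of them. There were 0, 0, 3 and 0 counts in Xbp1-deficient libraries, against 1, 1, 4 and 0 in the Xbp1-line wild type, and 1, 0, 0 and 0 in compound-deficient libraries, against 0, 1, 0 and 2 in the compound-line wild type. Pooled over a group (summed counts over summed totals) this came to 0.704 CPM in Xbp1-deficient libraries (exact Clopper-Pearson 95% interval 0.145 to 2.06) and 1.82 CPM in their wild type (0.667 to 3.95). It came to 0.477 CPM in compound-deficient libraries (0.0121 to 2.66) and 1.45 CPM in their wild type (0.298 to 4.23). The intervals overlap, but they cover counting error only and do not test the difference. Without the filter on low counts, edgeR gave a log2 fold change of −1.28 (SE 2.01, adjusted p = 0.929) in Xbp1-deficient cells. In compound-deficient cells it gave −1.89 (SE 2.25, adjusted p = 0.766), so no genotype difference in this microRNA was detected at this depth. Summed over all libraries, miR-451a had 29.2 counts for each count of miR-144-3p, its neighbour on the shared transcript.

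Summed, the 3 erythroid microRNAs came to 30.0 ± 11.3 CPM in Xbp1-deficient and 75.5 ± 24.6 CPM in Xbp1-line wild-type libraries, with ranges of 16.1 to 43.4 and 38.6 to 89.6 CPM. They came to 31.3 ± 15.5 CPM in compound-deficient and 71.7 ± 18.8 CPM in compound-line wild-type libraries, with ranges of 15.9 to 47.3 and 44.3 to 87.1 CPM (SD, n = 4 in each group). Both pairs of ranges overlap, and miR-451a makes up most of the gap. The part of red cell RNA in the genotype differences of other microRNAs was not tested.

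miR-223-3p, a brake on granulocyte production and activation that is highly expressed in neutrophils and monocytes and has also been described in dendritic cells, was the second most counted member. It stood at 2253, 1982, 2004 and 1331 CPM in Xbp1-deficient libraries, against 1980, 1881, 1948 and 1710 CPM in wild-type libraries of the Xbp1 line. In the compound line it stood at 2148, 1150, 1297 and 1453 CPM in deficient libraries, against 1390, 1353, 1628 and 987 CPM in wild-type libraries. Its spread over all 16 libraries was the lowest of the members, with a coefficient of variation of 23.2% against 73.6% for miR-451a. These values include counting error and group differences, on 275 to 2494 counts per library for miR-223-3p and 1 to 65 for miR-451a. The log2 fold change of miR-223-3p was 0.01 (SE 0.20, 95% interval −0.40 to 0.42, edgeR adjusted p = 0.988) in Xbp1-deficient cells and 0.18 (SE 0.20, interval −0.24 to 0.59, adjusted p = 0.727) in compound-deficient cells. Both intervals leave out a change of 2-fold, and the sign of both values flipped under other scalings.

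Between the wild types of the 2 lines, miR-223-3p was the member with an interval that left out 0. The compound-line wild type averaged 1339 ± 264 CPM, and that of the Xbp1 line 1880 ± 121 CPM (SD, n = 4 each), with all 4 libraries of the compound line below all 4 of the Xbp1 line. The log2 difference was −0.49 (SE 0.20, 95% interval −0.90 to −0.07), at an unadjusted p of 0.0233 and an edgeR adjusted p of 0.366. Of the 6 members 0 passed between the wild types, against 0% of all 255, and 1 of the 6 had an unadjusted p under 0.05, against 9.41%, or 24, of all 255. DESeq2 called 4 microRNAs, none a member, and limma on the deposited log2 values 0. Ranges stood apart for 1 of the 6, miR-223-3p, against 4.31% of all 255.

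Between the deficient genotypes, miR-223-3p averaged 1512 ± 441 CPM in compound-deficient and 1892 ± 394 CPM in Xbp1-deficient cells (SD, n = 4 each). This was −0.32 on the log2 scale with an SE of 0.20 and an interval of −0.73 to 0.09 (edgeR adjusted p = 0.436). Without compound-deficient replicate 1, the high library of its group at 2148 CPM, this became −0.64 at an adjusted p of 0.0392. With all libraries 0 of the 6 members passed between the deficient genotypes, against 7.45% of all 255, and 0 had an unadjusted p under 0.05, against 17.3%. For 0 of the 6 did the ranges stand apart, against 11.8%. miR-451a stood at 0.04 (SE 0.58, interval −1.17 to 1.25) in this comparison, whose deficient libraries are those already used against each wild type.

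miR-126a, the endothelial microRNA that supports vascular integrity, was counted as both arms of its hairpin. The 5p arm stood at 78.2, 72.8, 146 and 71.0 CPM in Xbp1-deficient libraries, against 80.2, 121, 168 and 107 CPM in wild-type libraries of the Xbp1 line. It stood at 111, 55.6, 123 and 121.5 CPM in compound-deficient libraries, against 106, 166, 131 and 85.7 CPM in the compound-line wild type. Deficient replicate 3 of the Xbp1 line and deficient replicate 2 of the compound line stood apart from their groups, and deficient and wild-type ranges overlapped in both lines. The log2 fold change of the 5p arm was −0.36 (SE 0.31, adjusted p = 0.674) in Xbp1-deficient and −0.26 (SE 0.32, adjusted p = 0.781) in compound-deficient cells in edgeR.

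The 3p arm was sparser. It ranged from 9.38 to 30.9 CPM in Xbp1-deficient libraries, against 7.27 to 21.1 CPM in the Xbp1-line wild type, and from 5.56 to 31.7 CPM in compound-deficient libraries, against 13.5 to 38.7 CPM in the compound-line wild type, on 2 to 36 raw counts. The log2 fold change of the 3p arm was 0.59 (95% interval −0.47 to 1.65, edgeR adjusted p = 0.674) in Xbp1-deficient and −0.57 (interval −1.70 to 0.55, adjusted p = 0.686) in compound-deficient cells. These changes differed by −1.17 (interval −2.71 to 0.38, edgeR adjusted p = 0.706). The 5p arm had more counts than the 3p arm in 16 of 16 libraries. Its ratio to the 3p arm was 2.53 to 7.57 in Xbp1-deficient libraries, against 5.74 to 14.7 in the Xbp1-line wild type, and 3.83 to 10 in compound-deficient libraries, against 2.9 to 7.8 in the compound-line wild type.

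miR-143-3p, made in smooth muscle cells and fibroblasts, was the most counted member. It stood at 1852, 2425, 4443 and 1715 CPM in Xbp1-deficient libraries, against 3085, 3808, 2319 and 1836 CPM in wild-type libraries of the Xbp1 line. In the compound line it stood at 2272, 1678, 2421 and 2056 CPM in deficient libraries, against 2019, 2488, 2815 and 2214 CPM in wild-type libraries. Xbp1-deficient replicate 3 was the highest of all 16, and also held the highest 5p arm of miR-126a among deficient libraries. The other marker of each lineage was not high in that library. Its 3p arm of miR-126a stood at 20.1 CPM, within the group's range of 9.38 to 30.9 CPM. Its miR-145a-5p, at 3.21 CPM on 4 raw counts, was the lowest of the group. The log2 fold change of miR-143-3p was −0.08 (SE 0.26, 95% interval −0.63 to 0.46, edgeR adjusted p = 0.908) in Xbp1-deficient and −0.18 (SE 0.26, interval −0.73 to 0.37, adjusted p = 0.783) in compound-deficient cells.

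miR-145a-5p is made from the same stromal transcript as miR-143-3p, and had 35 counts over all libraries, 1 for every 886 counts of miR-143-3p. It had 4, 5, 4 and 4 counts in Xbp1-deficient libraries, against 0, 0, 3 and 0 in the Xbp1-line wild type. In compound-deficient libraries it had 0, 0, 0 and 1, against 10, 1, 3 and 0 in the compound-line wild type. The Xbp1-deficient libraries had 3.21 to 5.36 CPM, against 0 to 3.90 CPM in their wild type, so the groups overlapped once depth was taken into account. Compound-line wild-type replicate 1 held 10 of the 14 counts of its group. Pooled levels were 3.99 CPM in Xbp1-deficient libraries (exact Clopper-Pearson 95% interval 2.32 to 6.39) and 0.908 CPM in their wild type (0.187 to 2.65), and 0.477 CPM in compound-deficient libraries (0.0121 to 2.66) and 6.75 CPM in their wild type (3.69 to 11.3). Without the filter on low counts, edgeR gave a log2 fold change of 2.00 (SE 1.65, adjusted p = 0.639) in Xbp1-deficient and −3.03 (SE 1.90, adjusted p = 0.559) in compound-deficient cells.

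miR-122-5p, the dominant microRNA of hepatocytes and one that circulates in plasma, was counted in 6 of 16 libraries, all of the Xbp1 line. It had 0, 1, 0 and 1 counts in Xbp1-deficient libraries, against 4, 9, 6 and 1 in the Xbp1-line wild type. All 8 libraries of the compound line, deficient and wild type, had 0 counts. In libraries without a count, 3 counts would have been 2.41 to 15.9 CPM. Over the group, the Xbp1-line wild type came to 6.06 CPM when pooled (exact Clopper-Pearson 95% interval 3.70 to 9.35). The compound-line wild type came to 0 of 2074428 counts (interval 0 to 1.78 CPM), where 3 counts would have been 1.45 CPM. Xbp1-deficient libraries came to 0.469 CPM (interval 0.0568 to 1.69), whose interval does not meet that of their wild type on counting error alone. Without the filter, edgeR gave an adjusted p of 0.559 for this change and 0.442 between the wild types.

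**Figure D4:**
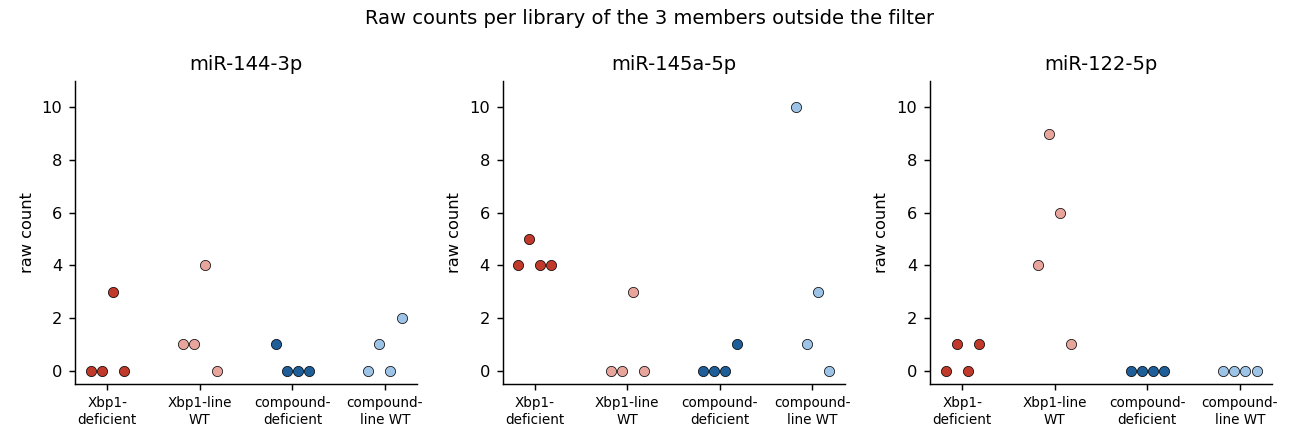
Raw counts per library of miR-144-3p, miR-145a-5p and miR-122-5p, which did not pass the count filter, by group. miR-122-5p is at 0 in all 8 compound-line libraries and between 1 and 9 in the 4 Xbp1-line wild-type libraries, and 4 to 5 counts of miR-145a-5p appear in each Xbp1-deficient library.

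Across the 6 members tested, the median log2 fold change was −0.22 in Xbp1-deficient cells, with 2 members above and 4 below 0, against a median of −0.07 over all 255 microRNAs. In compound-deficient cells it was −0.22, again with 2 above and 4 below 0, against 0.04 over all 255. The remaining 3 members did not pass the filter and are not in these medians.

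**Figure D5:**
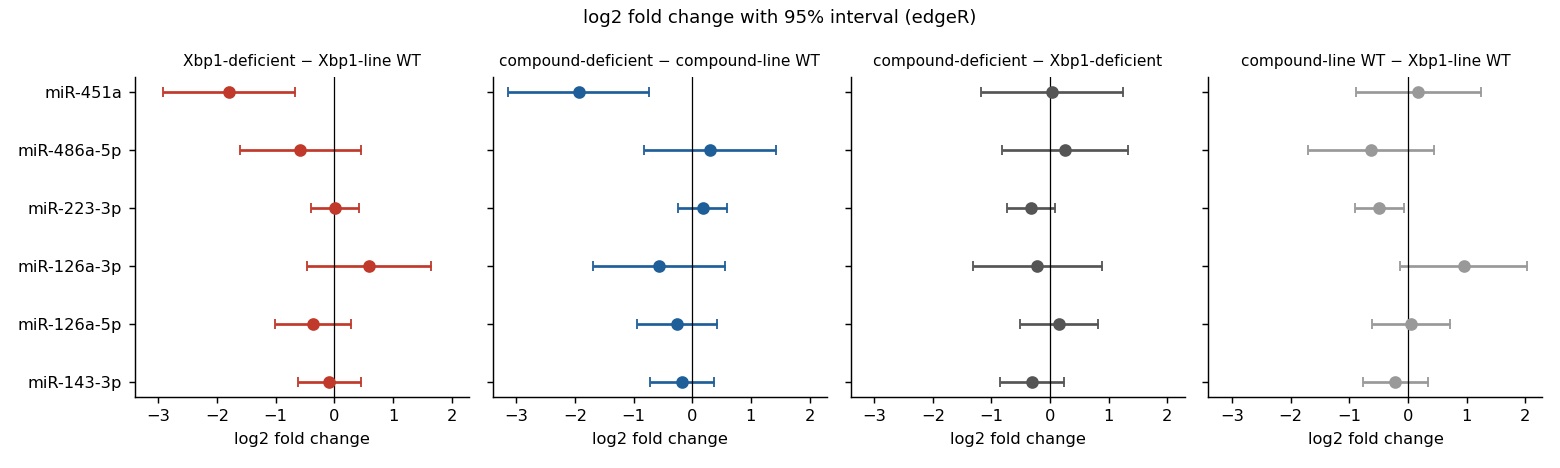
log2 fold change (horizontal axis) of the 6 tested members with its 95% interval from the edgeR fit, for 4 comparisons, each named above its panel as the first group minus the second. The intervals of miR-451a leave out 0 against both wild types, and between the wild types that of miR-223-3p does.

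Whether members rise and fall together from library to library was examined within groups, on log2 CPM with each group's mean subtracted. Over the 15 pairs of the 6 members, Pearson's r ranged from −0.34 to 0.56 with a median of 0.24, and 0 pairs passed after Benjamini-Hochberg adjustment of a permutation test within groups (100000 resamples, two-sided, smallest adjusted p = 0.396 for r and 0.462 for Spearman's rho). The 2 erythroid microRNAs gave r = 0.24 and rho = 0.26 (n = 16, adjusted permutation p = 0.568 and 0.462), and r was 0.10 without the 2 libraries farthest from the median of miR-451a. Both arms of miR-126a gave r = 0.46 and rho = 0.32 (adjusted permutation p = 0.396 and 0.462), and r was 0.17 without 2 libraries. miR-451a and miR-223-3p gave the highest r, 0.56, with rho = 0.52 and an unadjusted permutation p of 0.0735 for r and 0.0732 for rho (adjusted 0.396 and 0.462), and r was 0.60 without 2 libraries. The raw counts behind miR-451a in these correlations were 1 to 65 per library.

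By the same measure, the microRNAs outside the 9 that followed each of 3 members most closely over the 16 libraries were found among 249 that passed the filter. They are given by identifier, since the tables used here do not pair identifiers with names, and with no p, having been picked as the highest. For miR-451a these were MIMAT0016988 (r = 0.67), MIMAT0000704 (r = 0.65) and MIMAT0000616 (r = 0.58). None of the 3 passed against either wild type. MIMAT0016988, at a median of only 6.49 CPM, had a log2 fold change of −2.54 in Xbp1-deficient cells (edgeR adjusted p = 0.236) and −0.88 in compound-deficient cells (adjusted p = 0.725). MIMAT0000704, at a median of 58.5 CPM, had −0.84 (adjusted p = 0.236) and −0.20 (adjusted p = 0.872) in these edgeR comparisons, and MIMAT0000616, at a median of 674 CPM, had −0.07 (adjusted p = 0.885) and 0.16 (adjusted p = 0.686). For miR-223-3p they were MIMAT0000236 (r = 0.89), MIMAT0000559 (r = 0.84) and MIMAT0000154 (r = 0.80). For miR-126a-3p they were MIMAT0004628 (r = 0.78), MIMAT0000537 (r = 0.77) and MIMAT0004747 (r = 0.68).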

How the data were processed

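Per the labels' protocols, sorted cDC1s went straight into lysis buffer, and size-selected small RNA libraries followed from a TruSeq kit. Builds GRCm38 and mm10 are listed in the submitters' processing notes, next to Bowtie (1.1.2), cutadapt (1.8.1), limma (3.42.2) and FastQC (0.11.3). How reads matching several microRNAs were counted is not given in the sources used here. The authors deposited raw counts of 853 microRNAs, and log2 CPM values of 473, which follow log2 of the count plus 0.5 up to a constant per library.

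Groups came from the sample descriptions. The labels do not state that replicates are separate animals, so a p-value here measures spread among libraries that may be technical. The filterByExpr filter (count minimum 10) left 255 microRNAs and 6 of the 9 members. edgeR 4.0.16 in R 4.3.3 fitted 4 group means to all 16 libraries without a replicate block, with TMM scaling and quasi-likelihood F tests adjusted by Benjamini-Hochberg over the 255. CPM uses these scaled sizes, and log2 CPM a prior count of 1. Alternatives included DESeq2 1.42.0 and limma 3.58.1. The fits were tested on simulated data. Every pair of libraries in a group differed beyond counting noise (smallest chi-square over its degrees of freedom 15.7).

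All 9 members were to be named, with 3 similar microRNAs for each of 3 members. Members and lists were chosen with earlier results of these data known. A further 23 names of other lineages could not be matched to identifiers. None of the 3 members outside the filter had a count in every library of a comparison, so no exact test was run on them. Sequences are from RefSeq (GRCm38.p6), and 4 of the 9 are given. The selection left out a chromosome, so RefSeq may hold more of the 9.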

Additional observations from a re-analysis of the deposited data

Results flagged for a closer look

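Within each group of 4 libraries, the gap between the highest or lowest library and its nearest neighbour, divided by the whole range of log2 CPM in that group, was compared with Dixon's 95% critical value of 0.829. Of 34 groups of member values 3 exceeded it. Chance gives about 1 in 20 for normally distributed values, a rate that need not hold for sparse counts such as those of miR-145a-5p. The 5p arm of miR-126a stood at 146 CPM in Xbp1-deficient replicate 3, against 71.0 to 78.2 CPM in the other 3, a gap of 0.873. Compound-deficient replicate 2 had 55.6 CPM of the same arm on 20 raw counts, with 111 to 123 CPM in the other 3, a gap of 0.837. miR-145a-5p had 10 counts, or 27.1 CPM, in compound-line wild-type replicate 1, against 0 to 3.23 CPM in the other 3, a gap of 0.837. No difference between the changes of the 2 lines passed a test for any of the 6 members tested.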

How the results depend on the processing

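Of 6 members tested, 0 passed in edgeR in each of the 5 planned comparisons, and miR-451a, or once miR-223-3p, made the exceptions. In compound-deficient cells the number called was 1, miR-451a, with total counts alone, upper-quartile scaling, no filter, 10 CPM in 4 libraries, DESeq2, limma on deposited log2 values, and a depth covariate, the log2 of total counts (chosen after seeing the data), and it was 0 to 1 with 1 library left out. In Xbp1-deficient cells it was 1 without the filter and with DESeq2. Between the deficient genotypes it was 0 to 1 with 1 library left out. The cause was not tested. Calls over all tested microRNAs ranged from 2 to 18 in Xbp1-deficient and from 4 to 24 in compound-deficient cells over the alternatives, against 6 and 15. They ranged from 0 to 32 between the deficient genotypes, 0 to 14 between the wild types and 0 to 3 for the difference of the changes, against 19, 0 and 0.

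Direction flipped only for values of at most 0.31 in size, and 0 of those fits passed. With total counts alone, miR-223-3p became −0.10 in Xbp1-deficient cells. With upper-quartile scaling miR-223-3p was −0.10 in compound-deficient cells and −0.22 for the difference of the changes, the 5p arm of miR-126a −0.30 for that difference and −0.081 between the deficient genotypes, and miR-451a −0.20 between the deficient genotypes. That last value was −0.036 with DESeq2 size factors, −0.037 with 10 CPM in 4 libraries, −0.14 without the filter, −0.052 with DESeq2 and −0.12 with limma. Without the filter the 5p arm was −0.012 between the deficient genotypes, and −0.054 in the wild types' comparison. With the compared groups alone, miR-223-3p was −0.0024 in Xbp1-deficient cells. With the depth covariate miR-223-3p was −0.11 in Xbp1-deficient cells, miR-143-3p 0.11 for the difference, 0.044 between the wild types and 0.16 between the deficient genotypes, and the 3p arm 0.062 between the deficient genotypes.

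With 1 library left out, flips gave these ranges. In Xbp1-deficient cells miR-143-3p ranged from −0.46 to 0.16 and miR-223-3p from −0.023 to 0.18, and in compound-deficient cells miR-223-3p from −0.12 to 0.23. For the difference of the changes the 5p arm ranged from −0.18 to 0.33, miR-223-3p from −0.16 to 0.19, miR-451a from −0.88 to 0.088 and miR-143-3p from −0.42 to 0.21. Between the wild types the 5p arm ranged from −0.14 to 0.25, miR-451a from −0.024 to 0.40 and miR-143-3p from −0.38 to 0.020. Between the deficient genotypes the 5p arm ranged from −0.044 to 0.39 and miR-451a from −0.68 to 0.29.

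Of correlations between members, 0 passed in each of the 5 alternatives. Signs flipped with a prior count of 5 for miR-451a and the 3p arm (0.054), miR-486a-5p and miR-223-3p (−0.016) and miR-486a-5p and the 3p arm (0.21), the last also with total counts alone (2.4e-05) and library sizes without the members (0.0013), and for miR-451a and the 5p arm without centring (0.18).

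Numbers of replicates are shared by both compound-line groups and by both deficient groups. Over the 255 microRNAs, deviations of same-numbered libraries correlated between −0.24 and 0.31, and the numbers were not taken to pair them. Libraries with different numbers were not compared in this way, so these values cannot decide whether the numbers pair. For miR-451a, however, replicates 1 and 2 lay above replicates 3 and 4 in these groups. They had 24.1 and 19.8 against 7.23 and 5.36 CPM in Xbp1-deficient libraries. Compound-deficient libraries had 24.7 and 19.4 against 3.67 and 5.28 CPM, and their wild type 67.7 and 70.8 against 58.1 and 26.6 CPM. The cause was not tested, and the Xbp1-line wild types are numbered 4, 5, 6 and 8. With the replicate block in a fit of the compared groups alone, 0 members passed. miR-451a was −2.25 (adjusted p 0.0605) in compound-deficient cells and −0.21 between the deficient genotypes, and edgeR called 4 and 19 microRNAs in all.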
